A study of Homo sapiens with 6 samples.

Results

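The genes described here are the semaphorins, plexins, neuropilins, ephrins and Eph receptors, which are the ligands and receptors of contact and gradient guidance of axons. They were picked from the RNA-seq table by symbol alone, as protein-coding genes named SEMA3 to SEMA7, PLXNA to PLXND, NRP1 or NRP2, EPHA or EPHB, and EFNA or EFNB. This gave 48 of the 21301 genes in the table, made up of 19 semaphorins, 9 plexins, 2 neuropilins, 8 ephrins and 10 Eph receptors. The rule used no measured value, though it was written with earlier results of these data known. The table holds only genes with at least 1 count in every library, and other genes of these families were not analysed here.

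The study treated SH-SY5Y cells, a human neuroblastoma line of neuronal character, with an siRNA against PSF (siPSF) or with a control siRNA (siControl). Both siRNAs were used at 10 nM and RNA was taken after 72 h, giving 3 siControl and 3 siPSF libraries that the study calls biological triplicates. PSF is a nuclear RNA-binding protein of paraspeckles and is encoded by SFPQ. All cells carried an siRNA, only 1 siPSF sequence was sequenced in 1 cell line, and no library of untreated cells was analysed here. The comparison asks which genes change when PSF is lowered.

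Semaphorins are secreted or membrane-bound proteins that mostly turn growth cones away. Plexins are their signalling receptors, and most class 3 semaphorins also need a neuropilin as the binding subunit. Ephrins sit on the surface of one cell and bind Eph receptor tyrosine kinases on the next, with signals in both directions; A-type ephrins are held by a lipid anchor and B-type ephrins cross the membrane. In sympathetic neurons and neuroblastoma, these families are known for steering migration, axon growth and cell sorting.

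Library totals ran from 101540520 to 132420931 counts, and replicates varied by a biological coefficient of variation of 12.6%. Levels within a gene are given as CPM, counts divided by the TMM-scaled library size, and levels between genes as FPKM, which also corrects for exon length. SFPQ was at 372, 356 and 401 CPM in the siControl libraries and at 209, 193 and 165 CPM in the siPSF libraries, without overlap. This left 50.2% of the siControl level, a fold change of -0.99 ± 0.10 on the log2 scale (SE of the edgeR fit), with an adjusted p of 3.9e-05. Among genes marking noradrenergic neuroblastoma, HAND2 ran from 1110 to 1290 CPM, GATA2 from 875 to 1020 CPM and PHOX2A from 267 to 357 CPM over the 6 libraries, and none of these was called. GATA3 (386 to 533 CPM) was called higher with a log2 fold change of 0.30. DBH (1000 to 2050 CPM) and TH, which stayed between 0.172 and 0.839 CPM, were called lower, with -0.68 and -1.20. The summed level of the 7 measured genes of 8 marking mesenchymal-type neuroblastoma ran from 206 to 212 CPM and from 149 to 204 CPM, with FN1 (-0.60) and NOTCH2 (-0.47) called lower. Of the markers of other cells, 2 of 5 for glia were measured, at sums of 1.17 to 1.63 CPM in siControl and 0.824 to 2.37 CPM in siPSF. The 4 fibroblast markers summed to 41.2 to 60.3 and 38.8 to 45.5 CPM, most of it PDGFRB, with none called, and the 3 endothelial markers were not analysed here. The part of these marker shifts in the results below was not tested. In bulk RNA, fewer cells of a type and less RNA per cell cannot be told apart. By the correlation of log2 CPM, siPSF replicate 3 lay farthest from its group, at 0.9911 and 0.9901 against 0.9942 between the other two siPSF libraries. By chi-square per degree of freedom of the counts, siControl replicate 3 (66.3 and 61.8 to the other siControl libraries) and siPSF replicate 3 (59.5 and 65.7) both stood apart, against 36.2 and 22.6 for the remaining pair of each group.

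Among the 48 genes, some plexins, ephrins and semaphorins were the most abundant on the FPKM scale. PLXNB2, a receptor for class 4 semaphorins, led with 45.7 ± 5.34 FPKM in siControl (SD, n = 3), followed by PLXNA1 with 24.3 ± 0.541 FPKM and PLXNA2 with 23.4 ± 2.23 FPKM, which did not differ beyond their spread. EFNB3 at 21.7 ± 1.95, SEMA4C at 20.6 ± 0.575 and EFNB2 at 19.5 ± 1.74 FPKM came next, and their ranges overlapped with each other as well. Among Eph receptors, EPHB4 had the highest siControl mean, 8.95 ± 1.27 FPKM, and overlapped EPHA2 at 6.76 ± 3.22 FPKM. In siPSF, EPHA2 had the higher mean, 11.4 ± 2.64 against 9.01 ± 0.433 FPKM, but the values of these genes overlapped there too. Both neuropilins were low, at 0.359 ± 0.0546 FPKM for NRP1 and 0.251 ± 0.0496 FPKM for NRP2. Summed over members, the plexins held 123 to 134 FPKM in siControl and 103 to 137 FPKM in siPSF, and the ephrins 74.4 to 77.5 FPKM in siControl and 63.0 to 69.7 FPKM in siPSF. For the semaphorins the sums were 64.3 to 69.5 and 60.2 to 67.0 FPKM, so the groups overlapped there and in the plexins but not in the ephrins.

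**Figure D1:**
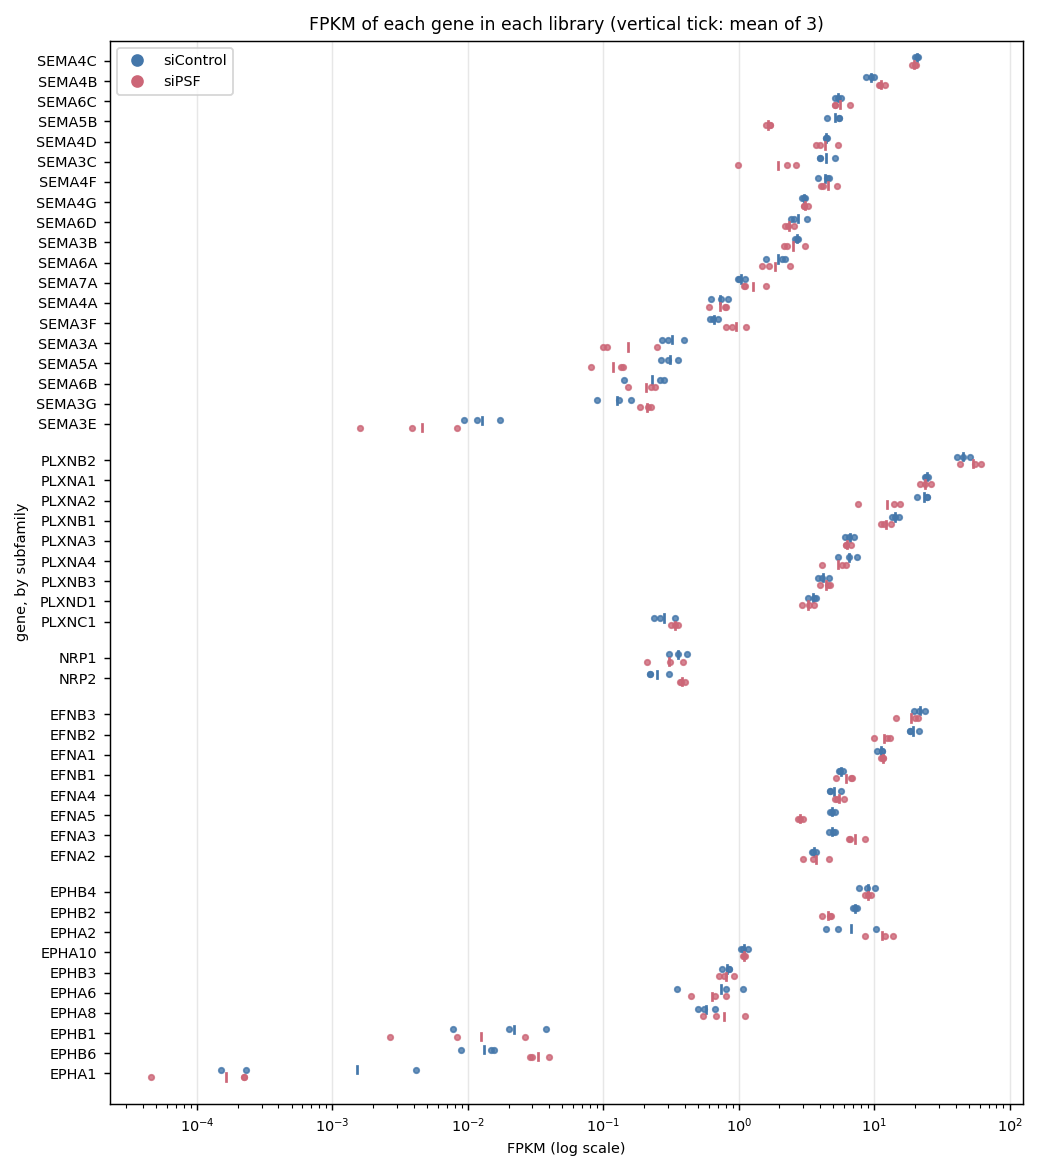
FPKM (log scale) of the 48 genes in each siControl (blue) and siPSF (red) library, with the mean of 3 as a vertical tick, ordered within subfamilies by the siControl mean. PLXNB2 has the highest points of the plot, with means of 45.7 FPKM in siControl and 53.5 FPKM in siPSF, while both neuropilins lie under 1 FPKM; SEMA5B, SEMA5A, EFNA5 and EPHB2 show siPSF points wholly to the left of the siControl points.

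Of the 48 genes, 46 passed the filter on low counts, and 42 of these had a mean of at least 1 CPM. SEMA3E (at most 0.140 CPM in any library) and EPHA1 (at most 0.0225 CPM) did not pass. A gene was called at an adjusted p under 0.05 over all 19694 genes tested. Fold changes are on the log2 scale, siPSF against siControl, and are given ± the SE of the fit. After siPSF, 6 of the 46 genes were called lower (13.0%), against 8.47% of all genes tested and 8.75% of the protein-coding genes. Another 6 were called higher (13.0%), against 6.84% of all genes and 6.88% of the protein-coding genes. The genes called lower were SEMA5B, SEMA5A, EFNA5, EFNB2, EPHA6 and EPHB2, and those called higher were SEMA4B, SEMA3F, SEMA3G, NRP2, EFNA3 and EPHB6. The groups did not overlap in 18 of the 46 genes (39.1%), 9 in each direction, against 34.4% of all genes tested. The median log2 fold change of the 46 genes was 0.06, beside 0.01 over all genes, and it was -0.09 beside -0.16 by limma once FPKM had been set to one common sum per library. The members' median was also below 0 without siControl replicate 3 (-0.01), without siPSF replicate 3 (-0.03) and without TMM scaling (-0.02). By limma it was -0.01 on log2(FPKM + 0.5) and -0.03 on log2(FPKM + 0.1), each beside -0.06 over all genes. Without TMM scaling, where the median of all genes moved to -0.07, 9 genes were called lower and 4 higher. Without siPSF replicate 3, with a median of all genes of 0.01, 9 were called lower and 7 higher. The shares of all genes called in such alternative fits were not analysed here. The count of genes called higher was 3 without siControl replicate 2, 1 without siControl replicate 3 and 3 without siPSF replicate 2.

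**Figure D2:**
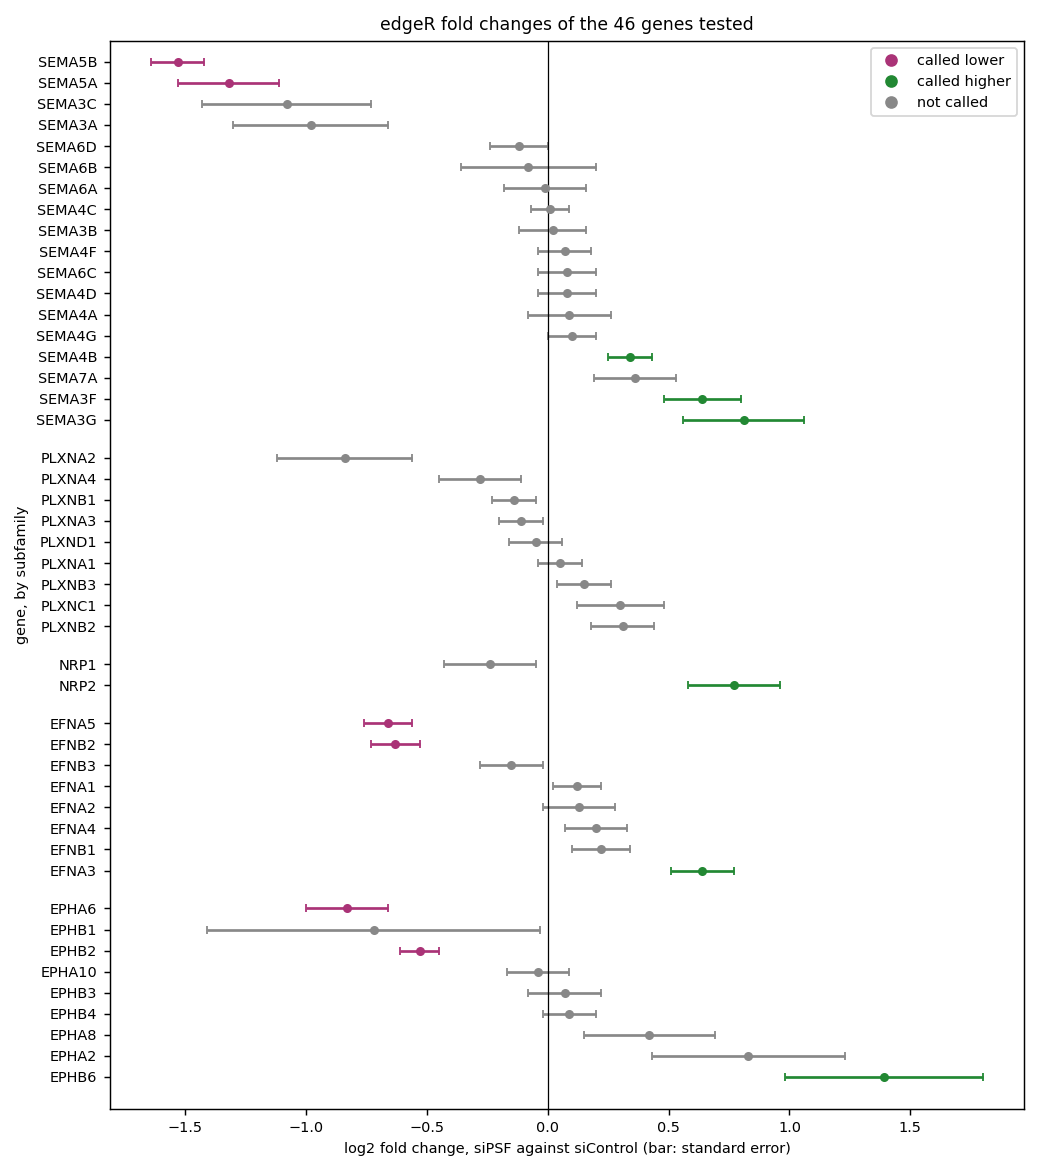
Fitted log2 fold changes of the 46 genes tested, siPSF against siControl, with bars for the standard error and colours for the edgeR call. SEMA5B (-1.53) and SEMA5A (-1.32) lie farthest to the left among the called genes, and the 9 plexins show no called gene.

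The class 5 semaphorins showed the deepest falls. They are membrane proteins with thrombospondin repeats, and in the retina they repel neurites through plexins A1 and A3. SEMA5B (gene ID 54437; chromosome 3 of GRCh38 from 122909082 to 123028605, minus strand) was at 23.1, 28.5 and 26.5 CPM in siControl and at 8.46, 9.19 and 9.43 CPM in siPSF. Every siPSF value lay far below the lowest siControl value. This left 34.7% of the siControl level (log2 fold change -1.53 ± 0.11, adjusted p = 8.8e-06), and the fits that each left out 1 library gave -1.61 to -1.47. SEMA5A (gene ID 9037; chromosome 5 from 9035033 to 9546075, minus strand) was much lower in level, at 0.310 ± 0.0449 FPKM in siControl against 5.15 ± 0.603 FPKM for SEMA5B. It was at 4.66, 4.13 and 5.21 CPM in siControl and at 2.19, 2.16 and 1.23 CPM in siPSF. Its log2 fold change was -1.32 ± 0.21 (adjusted p = 0.0010), and it was called in all 6 fits without 1 library. The receptors named for this class did not pass the test, with log2 fold changes of 0.05 for PLXNA1 and -0.11 for PLXNA3.

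The sequences before the starts of both class 5 genes are shown because these paralogs were lowered side by side, together with that of EFNA3, the gene whose rise held in every fit without 1 library. Each is the 250 bases before the outermost RefSeq start in GRCh38.p14, read 5′ to 3′ on the gene's strand, with capitals for the GC-box letters GGGCGG on either strand. They lie at chr5:9546076-9546325 (minus strand), chr3:123028606-123028855 (minus strand) and chr1:155078587-155078836 (plus strand).
SEMA5A: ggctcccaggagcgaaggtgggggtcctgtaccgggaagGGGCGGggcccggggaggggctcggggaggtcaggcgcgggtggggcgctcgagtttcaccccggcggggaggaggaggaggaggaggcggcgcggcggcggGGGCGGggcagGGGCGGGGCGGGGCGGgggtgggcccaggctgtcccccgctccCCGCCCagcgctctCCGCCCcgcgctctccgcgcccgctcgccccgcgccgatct
SEMA5B: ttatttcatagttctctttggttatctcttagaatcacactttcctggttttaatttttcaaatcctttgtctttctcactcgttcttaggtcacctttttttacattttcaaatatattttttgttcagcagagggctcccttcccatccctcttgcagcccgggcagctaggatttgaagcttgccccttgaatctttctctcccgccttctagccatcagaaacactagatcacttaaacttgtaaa
EFNA3: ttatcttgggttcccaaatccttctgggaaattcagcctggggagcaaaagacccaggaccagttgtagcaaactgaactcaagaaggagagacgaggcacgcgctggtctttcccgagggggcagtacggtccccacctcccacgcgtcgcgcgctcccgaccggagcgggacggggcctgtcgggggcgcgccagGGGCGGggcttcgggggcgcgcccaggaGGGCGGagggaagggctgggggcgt

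The stretch before SEMA5A is 82% G or C and holds 7 GC-box matches, which partly overlap. The one before SEMA5B is 39.2% G or C and holds none, so the paralogs that fell most have unlike sequences there. Which start SH-SY5Y cells use for these genes was not tested. EFNA3 stands between them with 67.6% and 2 matches. The same letters occur in 35 of the 42 members that have an entry in the RefSeq promoter table, in 55.8% of 15842 protein-coding genes and in 42.2% of 27304 genes of all kinds. TATAAA, the TATA-box letters, occurs on either strand in 1 of the 42 members and in 9.35% of the protein-coding genes. None of the 3 sequences shown holds it.

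The class 3 semaphorins, which are secreted, split in direction. SEMA3F, the ligand that binds through NRP2, was at 2.29, 2.46 and 2.37 CPM in siControl and at 3.44, 3.31 and 4.39 CPM in siPSF (chromosome 3 from 50155058 to 50189075). Its log2 fold change was 0.64 ± 0.16 (adjusted p = 0.016), a call lost without siControl replicate 2 (adjusted p = 0.065) or siControl replicate 3 (0.062). SEMA3G, another ligand of NRP2, was under 1 CPM on average, at 0.871, 0.487 and 0.683 CPM in siControl and 1.04, 1.23 and 1.30 CPM in siPSF. The log2 fold change of 0.81 ± 0.25 had an adjusted p of 0.042 and was called in only 1 of the 6 fits without 1 library, that without siControl replicate 1; in the others the adjusted p was 0.055 to 0.18. All siPSF values of both genes lay above all siControl values.

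SEMA3A and SEMA3C pointed the other way but did not pass. SEMA3A, the growth-cone collapsing ligand of NRP1, was at 2.37, 2.64 and 3.20 CPM in siControl and at 0.901, 0.985 and 2.29 CPM in siPSF (log2 fold change -0.98 ± 0.32, adjusted p = 0.063). SEMA3C was at 21.6, 21.6 and 26.5 CPM and at 14.7, 12.7 and 5.53 CPM (log2 fold change -1.08 ± 0.35, adjusted p = 0.10). In both genes the groups did not overlap, and siPSF replicate 3 stood away from the other two siPSF libraries, above them for SEMA3A and below them for SEMA3C. Without that library both genes were called lower, with log2 fold changes of -1.54 and -0.76 (adjusted p = 4.1e-05 and 3.5e-04). Both were also called without TMM scaling (adjusted p = 0.044 and 0.037) and by edgeR without robust moderation, an alternative chosen after the data were seen (0.049 and 0.016). DESeq2's Wald test called SEMA3A alone of them (adjusted p = 0.0042). Limma on FPKM called SEMA3C in its 3 settings (adjusted p = 0.013 to 0.039). SEMA3A was tested by limma only on log2(FPKM + 0.1), and was not called there (-0.79, adjusted p = 0.07). SEMA3B was at 8.50 ± 0.316 and 8.61 ± 1.77 CPM (SD, n = 3 each).

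Among the membrane-bound semaphorins of class 4, 1 of 6 genes was called, and it was higher (16.7%, against 6.84% of all genes tested). SEMA4B (chromosome 15 from 90184920 to 90229661) was at 36.2, 41.6 and 37.9 CPM in siControl and at 46.3, 48.6 and 52.0 CPM in siPSF. Its groups did not overlap, but the change was small, with a log2 fold change of 0.34 ± 0.09 (adjusted p = 0.024). The call was lost without siControl replicate 1 (adjusted p = 0.084), siControl replicate 3 (0.065) or siPSF replicate 2 (0.052). SEMA4C, the most abundant semaphorin per length and a ligand of PLXNB2, was at 80.7, 85.9 and 79.4 CPM in siControl and at 79.4, 83.7 and 85.2 CPM in siPSF (log2 fold change 0.01 ± 0.08). For SEMA4A, SEMA4D, SEMA4F and SEMA4G the log2 fold changes lay between 0.07 and 0.10, and none passed. Counts of SEMA4D and SEMA4G are less certain, since they overlap SECISBP2 (99.7 CPM on average) and MRPL43 (66.9 CPM) on the other strand and the use of strand in counting is not given in the sources used here. In classes 6 and 7, 0 of 5 genes were called by edgeR, against 8.47% lower and 6.84% higher over all genes tested. At an unadjusted p under 0.05 only SEMA7A, the lipid-anchored ligand of PLXNC1, would pass, with 0.36 (adjusted p = 0.17). DESeq2's Wald test called none of these 5 genes either.

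Of the 9 plexins, 0 were called in either direction by edgeR, against 8.47% lower and 6.84% higher over all genes tested. At an unadjusted p under 0.05 there was 1 lower (PLXNA2) and 1 higher (PLXNB2), against 3016 lower and 2836 higher of all 19694 genes tested. PLXNA2, a receptor for class 3 and class 6 semaphorins, was at 272, 315 and 318 CPM in siControl and at 191, 213 and 102 CPM in siPSF. The groups did not overlap, and siPSF replicate 3 was the lowest. The log2 fold change was -0.84 ± 0.28 (adjusted p = 0.10). Without siPSF replicate 3, PLXNA2 was called lower with -0.58 (adjusted p = 5.3e-04), and DESeq2's Wald test called it with all libraries (-0.85, adjusted p = 0.031). PLXNA2 was also called lower without TMM scaling (0.037), by edgeR without robust moderation (0.016) and by limma on FPKM (0.011 to 0.033). The replicate block, DESeq2 size factors, upper quartile factors and no filter gave no call (adjusted p = 0.053 to 0.12). Neither did leaving out any other library (0.081 to 0.21). PLXNB2 was at 356, 314 and 271 CPM in siControl and at 400, 451 and 314 CPM in siPSF, with overlap (0.31 ± 0.13, adjusted p = 0.15; called higher without siPSF replicate 3, 0.44, adjusted p = 0.0093). PLXNA1 was at 240, 249 and 229 CPM in siControl and at 243, 275 and 226 CPM in siPSF. The remaining plexins had log2 fold changes from -0.28 (PLXNA4) to 0.30 (PLXNC1).

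The neuropilins, the binding subunits for class 3 semaphorins, differed from each other. NRP2 (chromosome 2 from 205682501 to 205798131) was at 1.29, 1.78 and 1.53 CPM in siControl and at 2.25, 2.78 and 2.86 CPM in siPSF, without overlap. It rose by a log2 fold change of 0.77 ± 0.19 (adjusted p = 0.013), a call lost without siControl replicate 3 (adjusted p = 0.058). NRP1 was at 2.24, 1.89 and 2.08 CPM in siControl and at 1.86, 2.01 and 1.37 CPM in siPSF (log2 fold change -0.24 ± 0.19, adjusted p = 0.43). The difference between the 2 genes was not tested.

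Among the ephrins, 2 of 8 genes were called lower (25%, against 8.47% of all genes tested) and 1 higher (12.5%, against 6.84%). EFNB2, a transmembrane ligand of EPHB4 and other B-type receptors, was at 100, 100 and 112 CPM in siControl and at 73.9, 70.9 and 57.3 CPM in siPSF (chromosome 13 from 106489745 to 106535662, minus strand). This is a fall to 64.6% (log2 fold change -0.63 ± 0.10, adjusted p = 0.0011). EFNA5, an A-type ephrin that patterns retinal and cortical maps, was at 28.1, 30.0 and 31.6 CPM in siControl and at 19.7, 18.3 and 18.9 CPM in siPSF (chromosome 5 from 107376894 to 107670937, minus strand). It fell to 63.4% (log2 fold change -0.66 ± 0.10, adjusted p = 6.2e-04). EFNA3 moved the opposite way, from 9.10, 10.1 and 9.51 CPM to 13.2, 13.8 and 17.7 CPM (chromosome 1 from 155078837 to 155087538). Its log2 fold change was 0.64 ± 0.13 (adjusted p = 0.0055). EFNA3 shares exons with the read-through gene EFNA4-EFNA3 of RefSeq, which was not analysed here. None of these 3 genes had overlapping groups, and each kept its call in all 6 fits without 1 library.

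The other 5 ephrins did not pass. EFNB3, the most abundant ephrin per length in siControl, was at 69.1, 83.0 and 72.5 CPM in siControl and at 71.9, 77.2 and 53.5 CPM in siPSF, with overlap. EFNA1, EFNA2, EFNA4 and EFNB1 had log2 fold changes between 0.12 and 0.22. Without siPSF replicate 3, EFNB1 was called higher (0.33, adjusted p = 0.040).

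Of the 9 Eph receptors tested, 2 were called lower (22.2%, against 8.47% of all genes tested) and 1 higher (11.1%, against 6.84%). EPHB2, a kinase that binds B-type ephrins and also EFNA5, was at 72.1, 77.1 and 72.8 CPM in siControl and at 48.3, 53.0 and 52.1 CPM in siPSF (chromosome 1 from 22710838 to 22921500). The 3 values of each group lay close together, and the fall to 69.1% (log2 fold change -0.53 ± 0.08, adjusted p = 9.5e-04) held in all 6 fits without 1 library. EPHA6 (chromosome 3 from 96814594 to 97761532) was at 5.65, 4.28 and 5.80 CPM in siControl and at 2.89, 3.39 and 2.55 CPM in siPSF, with a log2 fold change of -0.83 ± 0.17 (adjusted p = 0.0048). On the deposited FPKM scale the groups of EPHA6 overlapped, at 1.08, 0.348 and 0.808 against 0.442, 0.807 and 0.664 FPKM, and limma on FPKM did not call it (-0.10 on the log2(FPKM + 0.5) scale, adjusted p = 0.79). EPHB6, a receptor without kinase activity, was at 0.0904, 0.0525 and 0.0873 CPM in siControl, from 7 to 11 reads a library, and at 0.177, 0.246 and 0.183 CPM in siPSF, from 18 to 26 reads. Its log2 fold change of 1.39 ± 0.41 (adjusted p = 0.036) was called in 1 of the 6 fits, that without siPSF replicate 3, and in the others the adjusted p was 0.060 to 0.15.

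EPHA2, a receptor for A-type ephrins, ranged widely among controls, at 44.5, 23.1 and 18.2 CPM in siControl and 53.0, 61.2 and 38.1 CPM in siPSF. Its log2 fold change of 0.83 ± 0.40 had an adjusted p of 0.24. Without siControl replicate 1 it was called higher (1.29, adjusted p = 0.0036). EPHB4 was at 48.1, 41.6 and 34.7 CPM in siControl and at 43.6, 46.5 and 42.3 CPM in siPSF (log2 fold change 0.09 ± 0.11). It overlaps SLC12A9 (37.1 CPM on average) on the other strand. EPHA8, EPHA10 and EPHB3 had log2 fold changes of 0.42, -0.04 and 0.07 and did not pass. EPHB1 was at 0.222 CPM or less in every library, and its value of -0.72 carried a standard error of 0.69. As a ligand and receptor that bind each other, EFNB2 and EPHB2 were both called lower, while EPHB4 was not called.

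**Figure D3:**
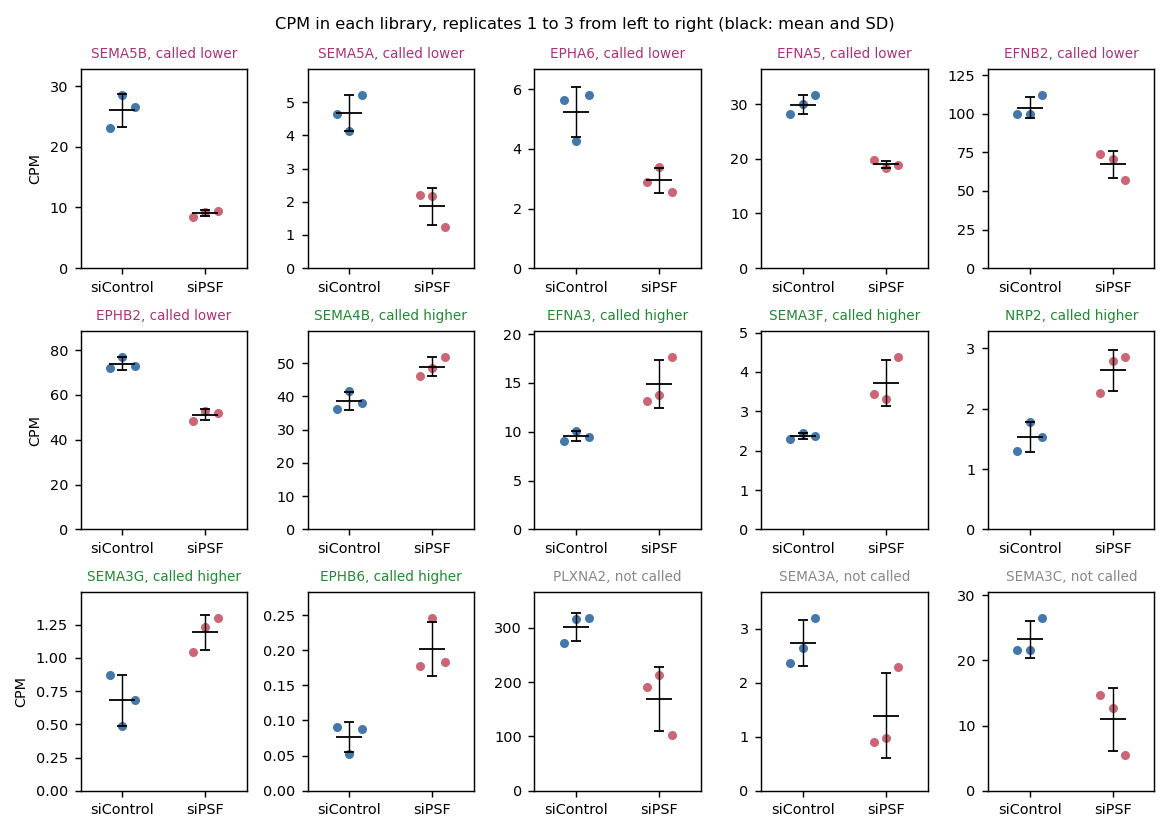
CPM in each library for the 12 called genes and for PLXNA2, SEMA3A and SEMA3C, with replicates 1 to 3 from left to right and the mean and SD (n = 3) in black; every axis starts at 0. In all 15 panels the siPSF and siControl points do not overlap, and in the last 3 siPSF replicate 3 stands apart from the other two siPSF points.

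The members called lower were mostly long genes. Of the 16 genes tested that span 100 kb or more, 13 had a fitted value below 0, and 5 were called lower (31.2%) against 25.4% of protein-coding genes of that length. The exception among long genes was NRP2, 1 called higher of 16 (6.25%), against 2.67% of protein-coding genes of that length. Of the 30 shorter genes, 1 was called lower, EFNB2 at 45.9 kb (3.33% against 4.79%), and 5 were called higher (16.7% against 7.89%). The median log2 fold change was -0.60 in the long members and 0.10 in the shorter ones, beside -0.17 and 0.05 over all protein-coding genes of those lengths. Over the 46 genes, Spearman's rho of gene length and log2 fold change was -0.58, a description across genes that share the same 6 libraries and are not independent. SEMA3A, SEMA3C and PLXNA2 are also long, at 537, 180 and 222 kb. Long genes that hardly moved were SEMA6D at 590 kb (-0.12, adjusted p = 0.55), SEMA6A at 131 kb (-0.01) and SEMA4D at 137 kb (0.08).

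**Figure D4:**
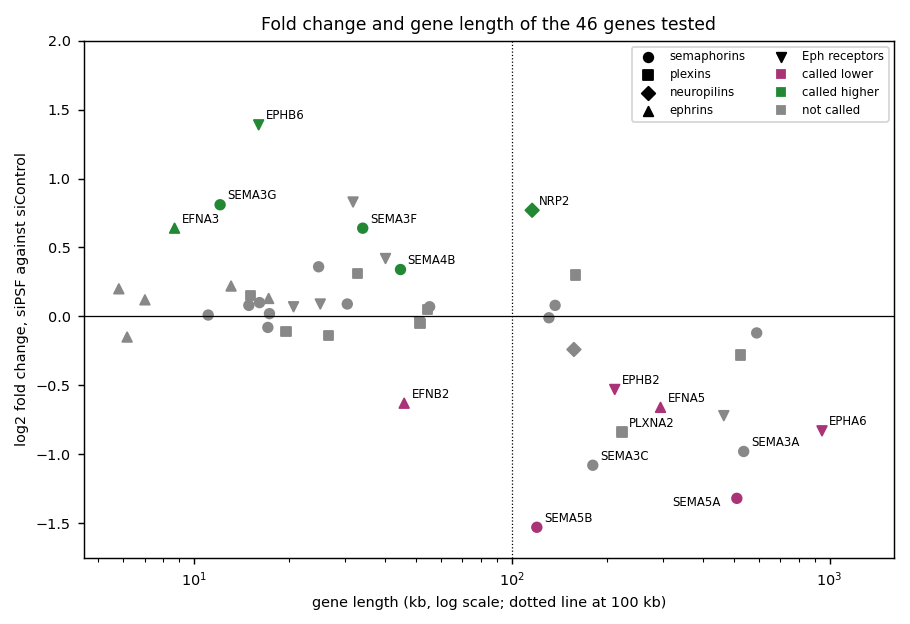
Log2 fold change (siPSF against siControl) against gene length in kb (log scale) for the 46 genes tested; marker shapes give the subfamily and colours the call. To the right of the dotted line at 100 kb, 13 of 16 genes lie below 0, and to its left 23 of 30 lie above 0.

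Signal-transducing partners of these receptors were taken from a list of 55 genes, of which 53 were tested. After siPSF, 9 were called lower (17.0%, against 8.47% of all genes) and 0 higher by edgeR (against 6.84%). At an unadjusted p under 0.05, 16 of the 53 were lower and 4 higher. Over all 19694 genes tested, 3016 were lower and 2836 higher at that limit. DESeq2's Wald test called 10 of the 53 lower and 0 higher, and its share over all genes was not analysed here. The median log2 fold change of the list was -0.06. FARP1, a guanine nucleotide exchange factor linked to plexin signalling, was at 87.5, 90.5 and 83.4 CPM in siControl and at 36.9, 47.1 and 39.8 CPM in siPSF (log2 fold change -1.08 ± 0.10, adjusted p = 2.3e-05). KALRN, an exchange factor that acts downstream of EphB receptors in dendritic spines, was at 49.3, 54.4 and 60.8 CPM and at 29.0, 29.2 and 25.3 CPM (log2 fold change -0.98 ± 0.10, adjusted p = 7.1e-05). PTPRO, a phosphatase of Eph receptors, was at 25.1, 30.8 and 35.0 CPM and at 14.4, 15.6 and 15.8 CPM (log2 fold change -0.99 ± 0.12, adjusted p = 2.1e-04). In each of these 3 genes all siPSF values lay below all siControl values. The other 6 called lower were the exchange factor TIAM1, the Rac-inactivating CHN2, the collapsin response mediators DPYSL3 and DPYSL5, the oxidoreductase MICAL2 and the adhesion molecule CHL1, with log2 fold changes from -1.61 to -0.36. CHN2 and MICAL2 averaged under 1 CPM, at 0.823 and 0.708 CPM. The value of -1.61 was that of CHN2, with a standard error of 0.39 and 65, 14 and 53 reads in the siPSF libraries. All 9 genes called lower are among the 31 of the 53 that span 100 kb or more. That is 29.0% of these 31, near the 25.4% of protein-coding genes of that length.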

How the data were processed

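The authors prepared poly(A)-selected libraries, read them as 50 bp pairs, took out rRNA with Bowtie 2 and mapped to hg38 with TopHat according to the study's methods, while the submitters' processing notes name Trimmomatic, HISAT2 2.1.0, StringTie 2.1.3b and GRCh38. The methods name an unstranded TruSeq kit and the labels a stranded one. The authors deposited raw read counts per RefSeq gene and FPKM values, scaled by exon length and mapped reads (RPKM in the methods). Each of the 21301 rows has at least 1 count in every library. Positions and lengths of all 48 members come from RefSeq (GRCh38.p14). Library totals were 101540520 to 132420931 counts.

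Here, counts were filtered (filterByExpr), scaled by TMM and fitted over all genes with edgeR's quasi-likelihood test with robust moderation, siPSF against siControl, without a block. The standard error is the log2 fold change divided by the root of F. Adjustment was that of Benjamini and Hochberg over 19694 genes. Values are given in every library for called members averaging 1 CPM or more and for the 2 with the highest FPKM in each subfamily; SEMA3G, EPHB6, SEMA3A, SEMA3C and PLXNA2 were added after their values were seen. One marker gene is not reported here. Members, lists and the 100 kb limit were chosen with earlier results of these data known. The fit was tested on simulated data. Alternatives were each library left out, a replicate block, DESeq2 size factors, upper quartile factors, no TMM, no filter, DESeq2's Wald test and limma on log2(FPKM + 0.5), rescaled or not, or log2(FPKM + 0.1); edgeR without robust moderation was added after the data were seen. Versions were edgeR 4.0.16, DESeq2 1.42.0 and limma 3.58.1 under R 4.3.3, and pandas 2.3.3 under Python 3.11.15.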

Additional observations from a re-analysis of the deposited data

How the results depend on the processing

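All 6 genes called lower were called lower in each of the 6 fits without 1 library, and 6 to 9 members were called lower there. Of the 6 called higher, only EFNA3 kept its call in all of these fits, and 1 to 7 members were called higher; the fit without siControl replicate 3 gave 1, and those without siControl replicate 2 or siPSF replicate 2 gave 3 each. Limma called 1 member higher on log2(FPKM + 0.5) and 1 on the rescaled values, where 37 members were tested and NRP2, SEMA3G and EPHB6 were not, and 1 on log2(FPKM + 0.1) without a filter. Rescaling FPKM moved the median of all genes to -0.16. Without TMM the median of all genes was -0.07. Among the signalling partners, 14 of 53 were called lower without TMM and 20 of 46 on rescaled FPKM, against 9 of 53 with TMM. The shares of all genes called in these alternative fits were not analysed here, so the rise is not a result about the partners. In the fits without 1 library 0 to 1 partners were called higher, and with the replicate block 2 were. DESeq2 size factors and upper quartile factors kept all 12 members called, and no called member changed sign under an alternative that tested it (SEMA5A, too, was not tested by limma on log2(FPKM + 0.5)). With the replicate block, 7 members were called lower and 5 higher: EPHB6 and SEMA3G lost their calls (adjusted p = 0.067 and 0.068), and SEMA3A (lower, 0.019) and EPHA2 (higher, 0.029) gained one. The replicate numbers share no stated batch, deviations of same-numbered libraries correlated at -0.0222 to 0.0561, and siControl replicate 1 correlated best with siPSF replicate 2. Causes of these differences were not tested. At these depths genes far under 1 CPM, such as EPHB6 (0.139 CPM on average), rest on few reads (7 to 26 for EPHB6), so a change there is loosely set. SEMA3G, also under 1 CPM on average, had 65 to 130 reads a library.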

Other observations

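CPM divided by FPKM moves only with a library's scaling when the exon length used is fixed, and it spanned 1.06 to 1.36 times over the libraries for every tested member but EPHA6. For EPHA6 it was 5.21, 12.3 and 7.17 in siControl and 6.53, 4.20 and 3.83 in siPSF, a span of 3.21 times. For NRP1 and NRP2 it spanned 1.36 and 1.35 times.

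Other members share their place with a gene on the opposite strand. EFNA4 (7.25 CPM on average) overlaps DCST1-AS1 (5.03 CPM), PLXNA3 (59.3 CPM) overlaps LAGE3 (27.7 CPM) and PLXNC1 (2.42 CPM) overlaps CEP83 (11.5 CPM). None of these 6 genes was called. SEMA6A overlaps its antisense RNA SEMA6A-AS1 (0.207 CPM, log2 fold change -0.68, not called). Among called members, EPHA6 holds LOC107986103 (0.104 CPM) and SEMA4B the pseudogene RPS12P26 (0.145 CPM), neither of them called.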
